A study of Mus musculus with 6 samples.

Results

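Histone lysine and arginine methyltransferases, histone demethylases and histone deacetylases were followed in mouse oocytes with a knock-out of Rtcb, which encodes an RNA ligase needed to finish tRNA splicing and to rejoin Xbp1 mRNA after IRE1 has cut it. The genes were chosen by symbol: all rows beginning with Kdm, Hdac, Setd, Setdb, Prmt or Sirt and a number, plus Ehmt1, Ehmt2, Ezh1, Ezh2, Eed, Suz12 and Suv39h1. This gave 59 genes of the 23235 rows of the table. Fully-grown germinal vesicle (GV) oocytes, which are arrested in meiotic prophase before ovulation, came from C57BL/6 mice primed with PMSG, a gonadotropin, for 44 to 48 h. There were 3 wild-type (WT) and 3 Rtcb knock-out (KO) libraries of 10 oocytes each, made by Smart-seq2 with oligo-dT priming. Both genotypes had the same strain, stage and priming, and all library titles carry the tag 6W, which the labels do not explain. Not given in the sources used here are the Cre driver, the deleted part of Rtcb and the number of animals. The p-values therefore rest on how far libraries of 1 genotype differ, a spread that may be technical.

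Histone methylation is written by enzymes that take the methyl group from S-adenosylmethionine (SAM), mostly with a SET domain for lysine and the PRMT fold for arginine. It is erased by flavin-dependent amine oxidases of the KDM1 type and by JmjC oxygenases, which need iron and oxoglutarate. Acetyl groups are removed by the zinc-dependent HDAC enzymes and by the NAD-dependent sirtuins. Fully-grown oocytes condense and silence their chromatin, and the mRNAs of these enzymes are in part stored for the early embryo. A transcript level is therefore not a level of protein or of a histone mark, neither of which was measured.

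Values are FPKM normalized by the authors to ERCC spike-ins; they are per length, so levels of different genes can be set side by side. Read depth per library is unknown. Log2 fold changes are KO against WT of log2(FPKM + 1), where changes of low genes come out too small, and adjusted p-values are from limma over all 12029 genes whose 6 libraries averaged 1 FPKM or more; a gene is called at an adjusted p under 0.05. The digits of the values show that every WT column carries a factor of 2 and every KO column a factor of 1.33, so the deposited scaling lowers KO against WT by 0.58 on the log2 scale. As deposited, 9.29% of all tested genes were called higher and 54.0% lower in KO, with a median of −0.47. With these genotype factors removed, 25.7% were higher and 18.0% lower, with a median of 0.043. Fewer oocytes, less RNA per oocyte and a difference in spike-in scaling cannot be told apart here. Rtcb, listed as D10Wsu52e, was at 136, 133 and 113 FPKM in WT and 3.82, 2.62 and 2.49 FPKM in KO (log2 fold change −5.02, adjusted p = 1.36e-05), which matches the labels. All 15 oocyte markers were above 1 FPKM in every library. Of 14 granulosa and cumulus markers, 7 stayed under 1 FPKM throughout, among them Fshr and Foxl2, with Ptx3 at 0. In every library 5 were at 1 FPKM or more: Nr5a2, Inha, Kitl, Cyp11a1 and Cyp19a1, the last from 35.6 to 39.8 FPKM in WT and from 17.5 to 22.2 FPKM in KO. The list summed to between 56.7 and 65.1 FPKM in WT and between 46.5 and 60.03 FPKM in KO. Theca and stroma markers summed to at most 2.12 FPKM. Blood and endothelial markers, mostly Pecam1, summed to between 34.02 and 49.6 FPKM in WT and between 18.9 and 22.5 FPKM in KO. The part of other cells in the values below was not tested.

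In WT oocytes the enzymes spanned a wide range of levels. The highest was Setd4, at 518, 564 and 726 FPKM, followed by Ezh2 at 343, 316 and 362 FPKM and Eed at 208, 262 and 255 FPKM. Ezh2 encodes the main catalytic subunit of Polycomb repressive complex 2 (PRC2) and Eed the subunit that binds its product. These 3 genes were apart from each other in every WT library, while lower down the order most neighbours overlapped: of 50 neighbouring pairs among the tested enzymes, 6 did not overlap in WT. Of the 59 genes, 10 had a WT mean of at least 100 FPKM, 24 lay between 10 and 100 FPKM, 14 between 1 and 10 FPKM, and 11 under 1 FPKM. In KO the order of means at the top was the same, with Setd4, Ezh2, Eed and Kdm6b in the first 4 places. There Ezh2 and Eed overlapped, and Eed lay above Ezh2 in KO 3. Together the 59 genes made up between 0.227% and 0.236% of the summed FPKM of a WT library and between 0.225% and 0.232% of a KO library, and these shares overlapped. Setd4, the highest of them, was also left out, a choice made after its values were seen. Without Setd4 the share was between 0.182% and 0.191% in WT and between 0.158% and 0.173% in KO, lower in every KO library. Setd4 kept its level while the summed FPKM was lower in KO, so leaving it out had to lower the KO share more. The lower share therefore supports nothing about the other enzymes.

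**Figure D1:**
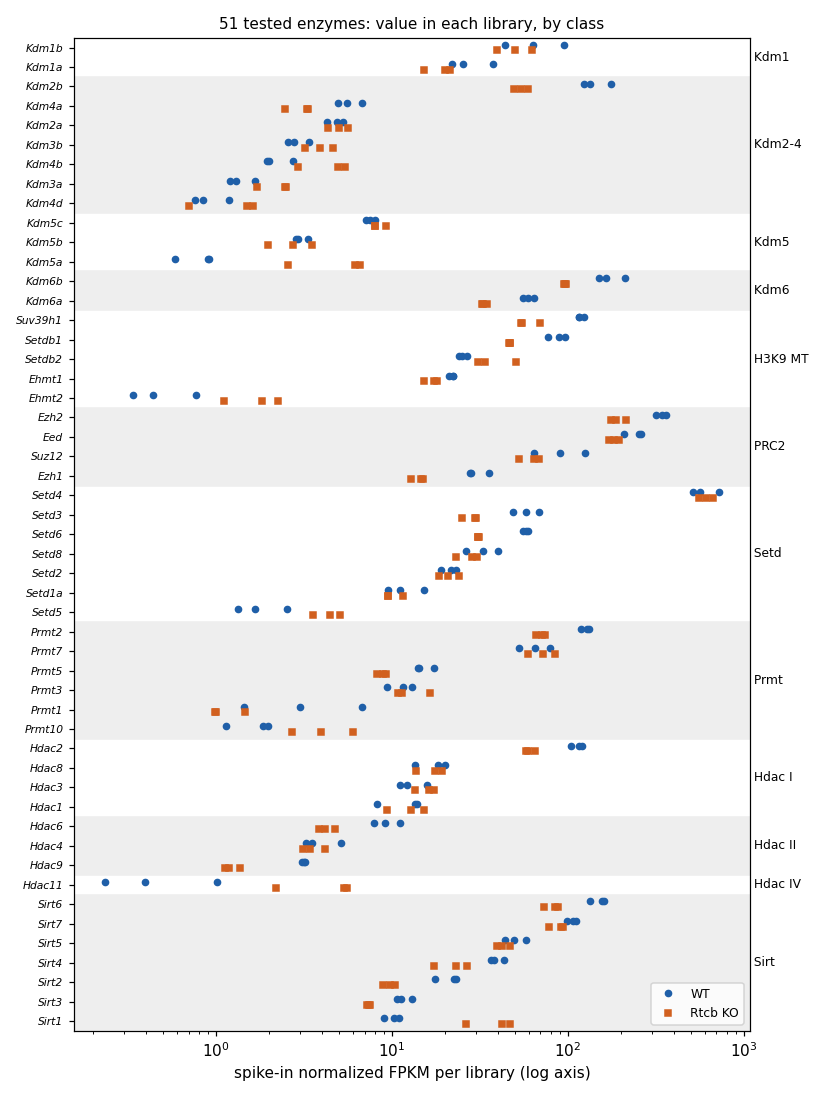
Spike-in normalized FPKM of the 51 tested enzymes in each library (log axis), grouped by enzyme class and ordered by WT mean within a class; circles are the 3 WT and squares the 3 KO libraries. Setd4 is the highest in both genotypes, and Sirt1, Kdm5a and Hdac11 have all KO libraries above all WT libraries. Kdm5a and Hdac11 passed the filter only through KO, so their separation supports nothing.

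Of the 59 enzymes, 51 passed the filter of a mean of at least 1 FPKM. Among them 8 rose and 22 fell in KO as deposited, and 21 were not called. That is 15.7% higher and 43.1% lower, against 9.29% and 54.0% of all tested genes. Their median log2 fold change was −0.26, against −0.47 for all genes. With equal totals per library 13 were higher and 15 lower, where 19.0% and 25.8% of all genes were. With the genotype factors removed 18 were higher and 10 lower (35.3% and 19.6%, against 25.7% and 18.0%), and their median was 0.27, against 0.043 for all genes. The direction of the list's median thus follows the scaling. Of the 8 rises, Ehmt2, Kdm5a and Hdac11 had WT means under 1 FPKM and entered the test only through their KO libraries, so they had to differ and the counts with them support nothing; 5 rises had a WT mean of at least 1 FPKM. All 8 rises and 10 of the 22 falls were called the same way as deposited, with equal totals and with the factors removed, the 3 main scalings, under which 9.23% of all genes were higher and 18.0% lower. Another 12 falls were called as deposited and lost without the factors, and 10 genes not called as deposited were higher without them. In 10 tested enzymes all KO libraries lay above all WT libraries (19.6%, against 10.2% of all genes), and in 23 all KO libraries lay below (45.1%, against 57.5%). The 10 again include Ehmt2, Kdm5a and Hdac11, so their share supports nothing either.

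The KO libraries did not show the rises equally. In all 8 enzymes that rose, KO 2 was the lowest of the 3 KO libraries. The same library was the lowest KO library in 85.3% of the 1118 genes called higher over the whole table. Without KO 2, 9 enzymes were called higher and 20 lower. Without KO 1, 5 were higher and 20 lower: Setdb2 and Kdm4b were lost, and Ehmt2 was not tested. Without KO 3, 6 were higher and 20 lower. Over all genes the 1118 called higher became 1360 without KO 2, 774 without KO 1 and 769 without KO 3. The 6501 called lower became 6192, 5813 and 5791. Whether KO 2 differs by its oocytes or by its preparation was not tested.

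**Figure D2:**
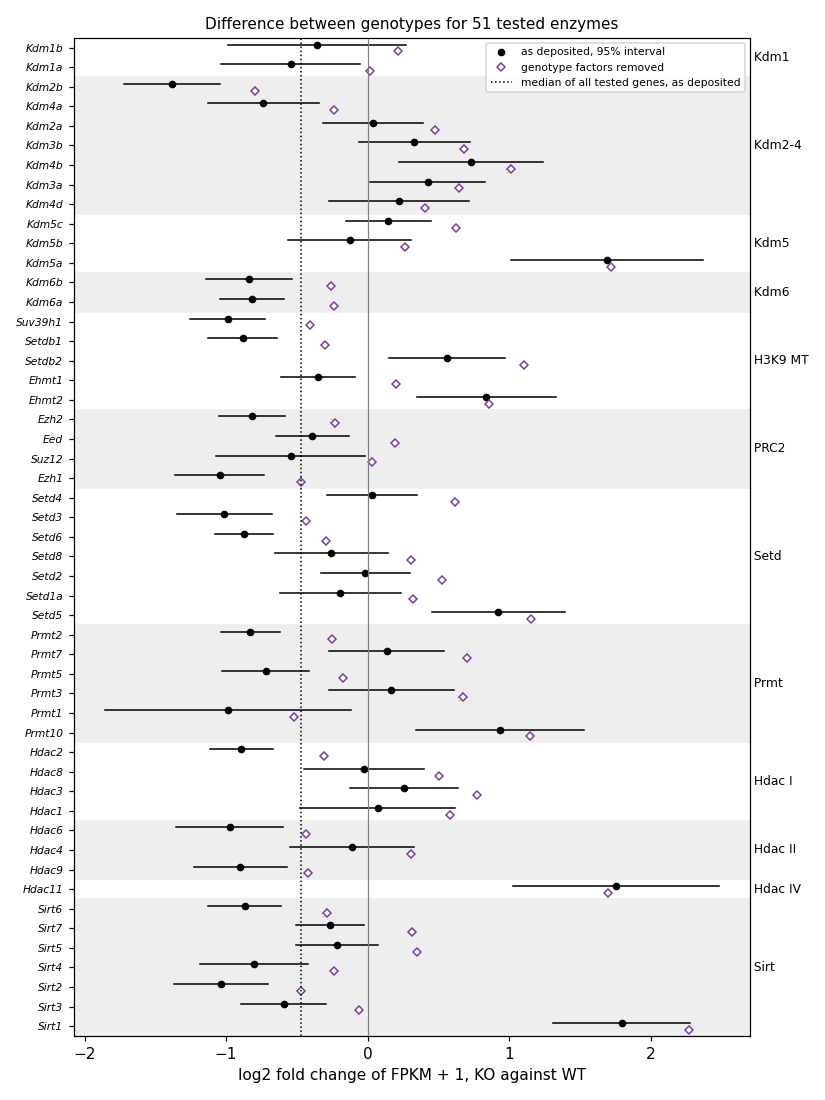
Log2 fold change of FPKM + 1, KO against WT, for the 51 tested enzymes by class; filled circles with lines are limma estimates with 95% intervals as deposited, open diamonds the estimates with the genotype factors removed, and the dotted line the median of all tested genes as deposited (−0.47). Sirt1, Hdac11 and Kdm5a stand farthest to the right and Kdm2b farthest to the left under both scalings. Hdac11 and Kdm5a passed the filter only through KO.

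**Figure D3:**
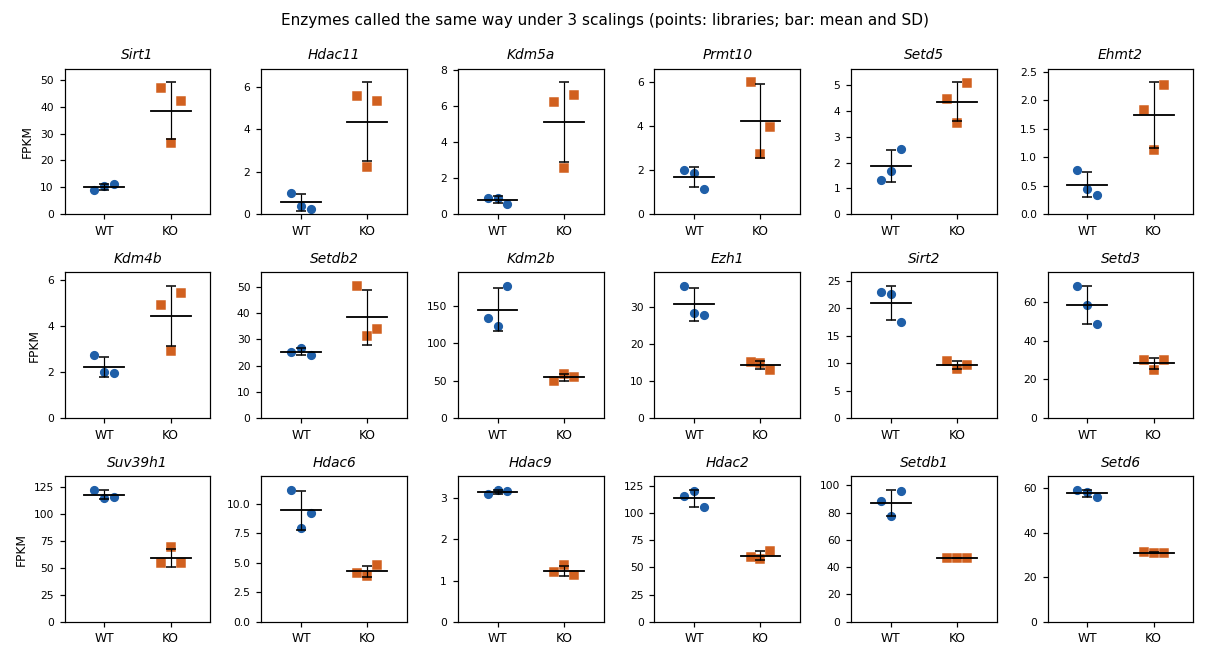
FPKM in each library for the 18 enzymes called the same way under all 3 main scalings; points are libraries, the bar is the mean and the whisker the SD (n = 3), and each axis starts at 0. The first 8 panels rose and the other 10 fell, and in none do the genotypes overlap. Ehmt2, Kdm5a and Hdac11 passed the filter only through KO, so their separation supports nothing.

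Among the H3K9 methyltransferases, related enzymes moved in opposite directions. SETDB1 trimethylates H3K9 at retroelements with its partner TRIM28, and SETDB2 is its paralog. Setdb1 was at 88.7, 77.2 and 96.1 FPKM in WT and 46.8, 46.9 and 46.5 FPKM in KO. Setdb2 was at 25.04, 26.6 and 24.1 FPKM in WT and 50.5, 31.1 and 33.9 FPKM in KO. The KO libraries of Setdb1 were thus all below WT and nearly equal, while those of Setdb2 were all above WT, with KO 1 well above the other two. Setdb1 fell (log2 fold change −0.88, SE 0.105, adjusted p = 0.000305) and Setdb2 rose (0.56, SE 0.178, adjusted p = 0.0246). The call of Setdb2 was lost without WT 3 (adjusted p = 0.0589), WT 1 or KO 1. Suv39h1, which encodes the enzyme of pericentric heterochromatin, was at 123, 115 and 116 FPKM in WT and 54.7, 69.1 and 54.3 FPKM in KO. It fell 1.99-fold as deposited, with no overlap between the genotypes, and was at −0.41 (adjusted p = 0.0221) without the factors.

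EHMT1 (GLP) and EHMT2 (G9a) form a heterodimer that writes mono- and dimethylated H3K9 in euchromatin. Ehmt2 was scarce in WT, at 0.767, 0.4403 and 0.3397 FPKM, and higher in every KO library, at 1.83, 1.12 and 2.27 FPKM. It passed the filter only through KO, and without KO 1 or KO 3 it was not tested. With no filter, where limma fitted every gene not at 0 in all libraries, it was called higher (log2 fold change 0.84, adjusted p = 0.0144). Ehmt1 went from 22.4, 21.1 and 22.1 FPKM in WT to 18.2, 15.3 and 17.4 FPKM in KO. This was a fall as deposited (log2 fold change −0.35, adjusted p = 0.0271), lost without any of 5 libraries (adjusted p up to 0.0706, without KO 2), and positive with the factors removed (0.20, adjusted p = 0.182). In all, 2 of the 5 enzymes rose and 3 fell as deposited, and 2 rose and 2 fell without the factors. Of all tested genes 9.29% rose and 54.0% fell as deposited, and 25.7% and 18.0% without the factors. The rises include Ehmt2, which entered only through KO, so these counts support nothing about the class.

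The core of PRC2, which methylates H3K27, was lower as deposited in 3 of its 4 genes, and in 1 without the factors, where 54.0% and 18.0% of all tested genes were lower. Ezh1, the second catalytic subunit, was at 35.6, 28.2 and 27.8 FPKM in WT and 15.1, 14.7 and 12.9 FPKM in KO. Ezh2 went from the WT values above to 177, 213 and 189 FPKM. Both lay lower in each KO library than in any WT library, and both fell, Ezh1 2.15-fold (adjusted p = 0.000424) and Ezh2 1.76-fold (adjusted p = 0.000346). Without the genotype factors Ezh1 alone remained called (log2 fold change −0.47), and Ezh2 was at −0.23 (adjusted p = 0.0921). Eed was at 171, 184 and 195 FPKM in KO and fell as deposited (log2 fold change −0.39, adjusted p = 0.0161), but its call was lost without WT 2 (0.0659) or KO 1, and its sign turned without the factors (0.19). Suz12, the scaffold subunit, was at 64.3, 89.9 and 126 FPKM in WT and 52.6, 68.7 and 64.2 FPKM in KO, with overlap and no call (log2 fold change −0.54, 95% interval −1.07 to −0.019). The 95% intervals are per gene, without adjustment, so one may leave out 0 where no call is made.

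The Setd genes are a mixed family with different substrates, and of 7 tested 1 rose and 2 fell as deposited (3 and 2 without the factors). That is 14.3% higher and 28.6% lower as deposited, against 9.29% and 54.0% of all genes. Without the factors it is 42.9% and 28.6%, against 25.7% and 18.0%. Setd4, the highest of all 59, was at 557, 667 and 613 FPKM in KO and was not called (log2 fold change 0.034, 95% interval −0.28 to 0.35). It was called higher with equal totals and without the factors (0.62, adjusted p = 0.00925). Setd2, the enzyme of H3K36 trimethylation, was called higher only without the factors among the 3 main scalings, at 21.6, 19.002 and 23.3 FPKM in WT and 24.1, 18.5 and 20.9 FPKM in KO (−0.015 as deposited and 0.53 without the factors, adjusted p = 0.0158). Setd3, which encodes the actin histidine methyltransferase, was at 68.4, 58.3 and 48.6 FPKM in WT and 29.8, 24.9 and 30.1 FPKM in KO. Setd6, whose product methylates the NF-kappaB subunit RELA, was at 59.2, 58.3 and 55.9 FPKM in WT and 31.4, 30.97 and 31.002 FPKM in KO. Setd3 fell 2.06-fold (adjusted p = 0.000645) and Setd6 1.86-fold (adjusted p = 0.000202) as deposited, each with all KO libraries below WT. Without the factors they were at −0.44 (adjusted p = 0.0404) and −0.30 (adjusted p = 0.0273). Setd5 went the other way, from 1.33, 1.68 and 2.54 FPKM in WT to 4.46, 3.56 and 5.09 FPKM in KO, a 2.36-fold rise (log2 fold change 0.92, adjusted p = 0.00492). Setd8, the H4K20 monomethyltransferase now named Kmt5a, was at 26.3, 32.9 and 40.1 FPKM in WT and 23.3, 30.3 and 28.4 FPKM in KO. It and Setd1a, of the H3K4 complexes, overlapped and were not called under any of the 3 main scalings. Setd7 was at or under 0.0141 FPKM in each library and was not tested.

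Of 6 tested arginine methyltransferases 1 rose and 3 fell as deposited, and 3 were called higher and 0 lower without the factors. Over all tested genes 9.29% rose and 54.0% fell as deposited, and 25.7% rose and 18.0% fell without the factors. The share of the family that fell as deposited was thus near that of all genes. The most abundant in WT, Prmt2, was at 132, 119 and 128 FPKM in WT and 66.4, 74.3 and 71.2 FPKM in KO. It fell 1.79-fold as deposited (adjusted p = 0.000235), against an adjusted p of 0.0522 without the factors. Prmt7, the monomethylating enzyme, was below Prmt2 in every WT library and above it in KO 1 and KO 3, at 79.4, 65.5 and 53.01 FPKM in WT and 84.7, 59.5 and 72.6 FPKM in KO, with overlap. It was not called as deposited (0.13, 95% interval −0.27 to 0.54) and higher without the factors (0.70, adjusted p = 0.0141). Prmt5, which makes symmetric dimethylarginine on histones and Sm proteins, was at 17.4, 14.1 and 14.3 FPKM in WT and 8.97, 8.27 and 9.25 FPKM in KO, a 1.73-fold fall (adjusted p = 0.00211) that was not called without the factors (−0.17, adjusted p = 0.298). Prmt10, the former symbol of Prmt9, whose product methylates a splicing factor, rose from 1.99, 1.87 and 1.14 FPKM in WT to 5.999, 2.71 and 3.94 FPKM in KO (log2 fold change 0.94, SE 0.256, adjusted p = 0.0132). All KO libraries of Prmt10 were above WT, KO 1 most and KO 2 least. Prmt1, the main asymmetric dimethyltransferase of many cells, was uneven in WT, at 3.01, 6.75 and 1.44 FPKM, and low in KO, at 1.46, 0.999 and 0.983 FPKM. It was called lower at the edge of the threshold (adjusted p = 0.0494) although WT 3 lay below KO 1, and the call was lost without any of 5 libraries (up to 0.12, without KO 3). Its KO to WT ratio of means, 0.307, moved to 0.516 without WT 2. Prmt3, whose product methylates a small-subunit ribosomal protein, overlapped (0.17 as deposited; 0.67 without the factors, adjusted p = 0.0208). Prmt6 stayed under 1 FPKM and Prmt8, a membrane-bound family member, was listed at 0 in all 6 libraries.

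The demethylases of the amine oxidase type were not called under any of these 3 scalings. Kdm1b, which removes H3K4 methylation in growing oocytes ahead of imprint setting, was at 95.2, 63.3 and 44.1 FPKM in WT and 62.7, 39.9 and 50.3 FPKM in KO. WT was widely spread, so the 95% interval of its log2 fold change ran from −0.99 to 0.27. Kdm1a (LSD1), the partner of the CoREST proteins, was at 21.99, 25.5 and 37.9 FPKM in WT and 15.2, 21.4 and 20.1 FPKM in KO. Its KO libraries were all below WT, but it missed the threshold (−0.54, adjusted p = 0.0541) and was at 0.016 without the factors.

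Kdm2b had the largest fall of the 51 tested enzymes in log2(FPKM + 1); by the ratio of means Prmt1, which was uneven in WT, fell more (3.25-fold). Its product binds unmethylated CpG islands, where it brings in a variant of Polycomb complex PRC1 and demethylates H3K36. Kdm2b was at 134, 124 and 177 FPKM in WT and 49.8, 59.5 and 54.4 FPKM in KO, so the highest KO library was less than the lowest WT library by a wide margin. It fell 2.66-fold as deposited (log2 fold change −1.38, SE 0.146, adjusted p = 0.000219) and was at −0.80 (adjusted p = 0.00422) without the factors. Its paralog Kdm2a was far lower, at 4.31, 5.301 and 4.88 FPKM in WT and 5.04, 4.32 and 5.66 FPKM in KO, and overlapped as deposited. Kdm2a was higher without the factors (0.47, adjusted p = 0.0265).

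The H3K9 and H3K36 demethylases of the Kdm3 and Kdm4 groups were all low in GV oocytes. Kdm4a was at 4.96, 5.53 and 6.74 FPKM in WT and 3.34, 3.303 and 2.48 FPKM in KO and fell as deposited (−0.74, adjusted p = 0.00598), but not without the factors (adjusted p = 0.229). Kdm4b rose from 2.74, 2.01 and 1.94 FPKM in WT to 4.94, 2.94 and 5.45 FPKM in KO (0.73, adjusted p = 0.02). The lowest KO library, KO 2, stood just above the highest WT library, and the call was lost without any of 4 libraries (up to 0.0746, without KO 3). Kdm4c did not pass the filter; it was at 0.126, 0.163 and 0.168 FPKM in WT and at 1.23, 0.575 and 0.698 FPKM in KO, all KO libraries above all WT libraries. With no filter it was called higher (adjusted p = 0.00868), the 1 enzyme added to the 8. Kdm3a, an H3K9 demethylase, was at 1.68, 1.21 and 1.304 FPKM in WT and 2.48, 1.71 and 2.51 FPKM in KO, so KO 2 was just above the highest WT library. Kdm3a and Kdm3b were not called as deposited (adjusted p = 0.0635 and 0.123) and were higher without the factors (0.65 and 0.68, adjusted p = 0.00907 and 0.0088). Kdm4d was not called under any of the 3 main scalings.

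Of the H3K4 demethylases, Kdm5a was nearly silent in WT, at 0.898, 0.918 and 0.584 FPKM, and reached 6.199, 2.56 and 6.57 FPKM in KO. Every KO library was above WT, and KO 2 was less than KO 1 and KO 3 by more than the whole WT range. The KO mean was 6.39-fold the WT mean. Kdm5a passed the filter only through KO; with no filter it was called higher (log2 fold change 1.69, adjusted p = 0.00581). Kdm5c, the X-linked member, was at 7.16, 7.48 and 7.98 FPKM in WT and 9.29, 8.05 and 8.06 FPKM in KO, not called as deposited and higher without the factors (0.62, adjusted p = 0.00595). Kdm5b, at 2.86, 3.33 and 2.92 FPKM in WT and 2.73, 1.98 and 3.54 FPKM in KO, was not called under any of the 3 main scalings. The Y-linked Kdm5d was listed at 0 in all libraries.

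Both H3K27 demethylases fell as deposited, as did 54.0% of all tested genes. Kdm6b (JMJD3) was the more abundant, at 165, 212 and 149.8 FPKM in WT and 95.2, 98.4 and 96.03 FPKM in KO. Kdm6a (UTX), which is X-linked, was at 55.6, 59.5 and 64.1 FPKM in WT and 32.7, 33.1 and 34.6 FPKM in KO. The KO libraries of each gene agreed closely and lay below all WT libraries. Kdm6b fell 1.82-fold (adjusted p = 0.000926) and Kdm6a 1.78-fold (adjusted p = 0.000311). Both were also called lower with equal totals, and neither without the factors (−0.26 and −0.24, adjusted p = 0.14 and 0.0747).

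Most class I deacetylases sit in nuclear corepressor complexes, and the most abundant in these oocytes was Hdac2. Hdac2 was at 116, 120.3 and 105 FPKM in WT and 59.5, 57.8 and 65.1 FPKM in KO, while its paralog Hdac1 was at 13.5, 13.98 and 8.25 FPKM in WT and 15.3, 9.34 and 12.9 FPKM in KO. Hdac2 was separate between the genotypes and fell 1.87-fold (log2 fold change −0.89, adjusted p = 0.000235), whereas Hdac1 overlapped and was not called (0.072, 95% interval −0.48 to 0.62). Without the factors Hdac2 was at −0.31 (adjusted p = 0.031). Hdac3, the catalytic subunit of the NCoR complexes, was at 11.1, 15.9 and 12.2 FPKM in WT and 16.3, 13.6 and 17.3 FPKM in KO. It was not called as deposited (0.26) and was higher without the factors (0.77, adjusted p = 0.00689). Hdac8, the cohesin deacetylase, was at 18.3, 20.1 and 13.5 FPKM in WT and 17.6, 13.7 and 19.4 FPKM in KO and was not called (adjusted p = 0.0501 without the factors).

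Class II and class IV deacetylases were low. Hdac6, which deacetylates tubulin in the cytoplasm, was at 11.2, 7.92 and 9.18 FPKM in WT and 4.17, 3.88 and 4.78 FPKM in KO. Hdac9 was at 3.098, 3.2 and 3.16 FPKM in WT and 1.195, 1.37 and 1.13 FPKM in KO. Each had all KO libraries below WT, and they fell 2.21-fold (adjusted p = 0.00128) and 2.56-fold (adjusted p = 0.00102). Without the factors they were at −0.44 (adjusted p = 0.0473) and −0.42 (adjusted p = 0.0212). Hdac4, of the same subclass as Hdac9, was at 3.504, 3.27 and 5.15 FPKM in WT and 3.42, 3.12 and 4.19 FPKM in KO, overlapped and was not called (−0.11, 95% interval −0.55 to 0.33). Hdac5 and Hdac7 were at most 0.14 FPKM. Hdac10, a polyamine deacetylase, was at 0.956, 1.53 and 1.15 FPKM in WT and 0.5703, 0.458 and 0.839 FPKM in KO; the genotypes did not overlap, but it was under the filter and not tested. With no filter it was called lower, while the call of Prmt1 was lost. Hdac11, the single class IV enzyme, was at 1.01, 0.397 and 0.233 FPKM in WT and 5.58, 2.21 and 5.32 FPKM in KO, so that the lowest KO library was above the highest WT library. The KO mean was 7.99-fold the WT mean. Hdac11 passed the filter only through KO; with no filter it was called higher (log2 fold change 1.76, adjusted p = 0.00656). The ratio ran from 6.21-fold without WT 3 to 13.9-fold without WT 1.

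Of the 7 sirtuins 1 rose and 4 fell as deposited, and 2 rose and 1 fell without the factors. The 57.1% lower as deposited was near the 54.0% of all genes. Without the factors 28.6% were higher and 14.3% lower, near the 25.7% and 18.0% of all genes. Sirt1, the nuclear deacetylase of histones and transcription factors, was at 9.07, 10.3 and 11.03 FPKM in WT and 46.9, 26.5 and 42.3 FPKM in KO. The lowest KO library was above the WT values by more than the spread within WT. Sirt1 rose 3.81-fold (log2 fold change 1.79, SE 0.209, adjusted p = 0.000289) and moved from place 34 to place 16 in the order of levels. This was the largest change of all 51 tested enzymes in log2(FPKM + 1). By the ratio of means Hdac11 (7.99-fold) and Kdm5a (6.39-fold), both under 1 FPKM in the WT mean, rose more. Sirt2, the cytoplasmic tubulin deacetylase, was at 23.03, 22.7 and 17.5 FPKM in WT and 10.4, 8.95 and 9.75 FPKM in KO and fell 2.17-fold (adjusted p = 0.000563), also without the factors (−0.47, adjusted p = 0.0278). Sirt6, a chromatin-bound deacetylase of H3K9, was the most abundant sirtuin of WT, at 156, 162 and 134 FPKM, and was at 84.2, 87.8 and 73.4 FPKM in KO. It fell 1.84-fold as deposited (adjusted p = 0.000403), against an adjusted p of 0.0665 without the factors. Sirt7, the nucleolar enzyme, was at 112, 107 and 98.8 FPKM in WT and 94.02, 78.5 and 92.1 FPKM in KO and was not called (adjusted p = 0.0546), but higher without the factors (0.31, adjusted p = 0.0392). Of the mitochondrial sirtuins, Sirt3 (12.99, 11.3 and 10.7 FPKM in WT, 7.55, 7.19 and 7.399 FPKM in KO) and Sirt4 (36.6, 38.4 and 43.4 FPKM in WT, 23.2, 26.8 and 17.3 FPKM in KO) fell as deposited and were not called without the factors. Sirt5, the desuccinylase, overlapped and was not called (−0.22, 95% interval −0.51 to 0.073).

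Sirt1 with Sirt2 and Setdb2 with Setdb1 are 2 pairs of related genes whose members were called in opposite directions under all 3 main scalings. The 250 bases before their RefSeq start sites (GRCm38.p6) are shown to compare the promoters of a rising and a falling relative, 5′ to 3′ on the gene's strand, with CpG dinucleotides in capitals. These coordinates are of another build than that of the expression values, which is mm9. The start sites used in oocytes were not measured.
Sirt1: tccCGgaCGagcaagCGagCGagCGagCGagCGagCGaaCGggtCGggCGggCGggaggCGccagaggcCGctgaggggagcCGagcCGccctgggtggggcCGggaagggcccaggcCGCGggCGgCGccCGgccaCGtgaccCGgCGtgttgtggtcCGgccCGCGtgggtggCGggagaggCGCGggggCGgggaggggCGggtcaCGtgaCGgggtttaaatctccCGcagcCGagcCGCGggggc
Sirt2: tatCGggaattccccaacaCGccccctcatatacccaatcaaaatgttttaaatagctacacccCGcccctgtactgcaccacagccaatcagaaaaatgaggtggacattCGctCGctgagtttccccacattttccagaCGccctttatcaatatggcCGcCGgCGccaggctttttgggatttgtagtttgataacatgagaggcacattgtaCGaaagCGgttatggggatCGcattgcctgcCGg
Setdb2: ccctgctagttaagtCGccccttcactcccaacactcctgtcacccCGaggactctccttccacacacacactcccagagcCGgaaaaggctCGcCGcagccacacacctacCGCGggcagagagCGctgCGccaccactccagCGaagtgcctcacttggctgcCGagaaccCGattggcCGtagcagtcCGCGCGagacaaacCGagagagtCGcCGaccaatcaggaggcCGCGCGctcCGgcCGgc
Setdb1: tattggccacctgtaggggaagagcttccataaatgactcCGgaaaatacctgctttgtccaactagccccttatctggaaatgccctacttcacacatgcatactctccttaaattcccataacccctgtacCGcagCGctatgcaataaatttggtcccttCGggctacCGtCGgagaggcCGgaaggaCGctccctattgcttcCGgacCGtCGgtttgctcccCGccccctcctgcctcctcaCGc
The windows lie at chr10:63339036-63339285 (minus strand) for Sirt1, chr7:28766502-28766751 (plus strand) for Sirt2, chr14:59440881-59441130 (minus strand) for Setdb2 and chr3:95357203-95357452 (minus strand) for Setdb1. Sirt1 had 39 CpG and Setdb2 24, against 13 in both Sirt2 and Setdb1, so in these pairs the rising gene had more CpG. Over more enzymes the ranges overlapped: the 6 rising enzymes with an entry (of 8 called higher under the 3 scalings) had a median of 17.5 CpG and the 10 falling ones a median of 13.5, with ranges of 0 to 39 and 0 to 31. The table had an entry for 51 of the 59 enzymes, matched by symbol or synonym, and the first listed start was used; 39 of the 51 had a single start. The enzymes had a median of 15 CpG in this window, against 6 over 27025 promoters of all genes, and 4 of the 51 had fewer than 10. The 27025 were taken whether or not the gene was expressed in these oocytes, so the 2 sets are unlike.

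Motifs were searched on both strands of the same windows. The unfolded protein response element core TGACGTGG, bound by XBP1, was present in 1 enzyme promoter, that of Prmt5, and in 0.503% of all promoters. The ER stress element, CCAAT and CCACG with 9 bases between them, was in none of the 51, and in 0.122% of all promoters. The E-box CACGTG was in 5 of the 51 (9.8%, against 6.05% of all promoters), those of Sirt1, Ehmt2, Kdm6a, Prmt1 and Prmt3. The CCAAT box, which is also part of the ER stress element, was in 24 of the 51 (47.1%, against 34.5%), and TATAAA in 4 (7.84%, against 12.97%). Here too all promoters include those of genes not expressed in these oocytes. A match is a string of letters and not a bound site.

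Ratios between related enzymes within 1 library do not depend on the scaling. The 19 pairs were chosen after the values were seen and are given without a test. Setdb2 was at 0.282, 0.345 and 0.251 of Setdb1 in the WT libraries and at 1.08, 0.663 and 0.73 of it in the KO libraries. Hdac1 was at 0.117, 0.116 and 0.0785 of Hdac2 in WT and at 0.257, 0.162 and 0.197 in KO. Hdac2 thus stayed the more abundant of that pair in every library, while Setdb2 passed Setdb1 in KO 1. The ratio of Sirt1 to Sirt6 was 0.0582, 0.0637 and 0.0825 in WT and 0.558, 0.301 and 0.576 in KO. Kdm5a was at 0.125, 0.123 and 0.0731 of Kdm5c in WT and at 0.667, 0.318 and 0.815 in KO. Kdm2b exceeded Kdm2a 31.2-fold, 23.3-fold and 36.3-fold in WT and 9.88-fold, 13.8-fold and 9.61-fold in KO. In these 3 pairs too no KO ratio reached into the WT range. Kdm5a passed the filter only through KO, as did Ehmt2, so the separation of their ratios supports nothing. Of the 19 pairs, those that overlapped between the genotypes were Kdm1b to Kdm1a, Kdm5b to Kdm5c, Kdm6b to Kdm6a, Hdac8 to Hdac3, Ezh1 to Ezh2 and Suz12 to Ezh2. All others were separate, with Kdm2b to Kdm2a lower in KO and the rest higher. Which gene of a pair is put first sets this direction, and no share over other gene pairs was computed. Single genes were often separate too. As deposited, 10.2% of all tested genes had all KO libraries above WT and 57.5% had all below. The number of separate pairs therefore supports nothing. Kdm6b exceeded Kdm6a 2.96-fold, 3.57-fold and 2.34-fold in WT and 2.92-fold, 2.97-fold and 2.77-fold in KO. Within PRC2, Suz12 to Ezh2 and Ezh1 to Ezh2 overlapped between genotypes, while Eed was at 0.606, 0.83 and 0.704 of Ezh2 in WT and at 0.965, 0.86 and 1.04 in KO.

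**Figure D4:**
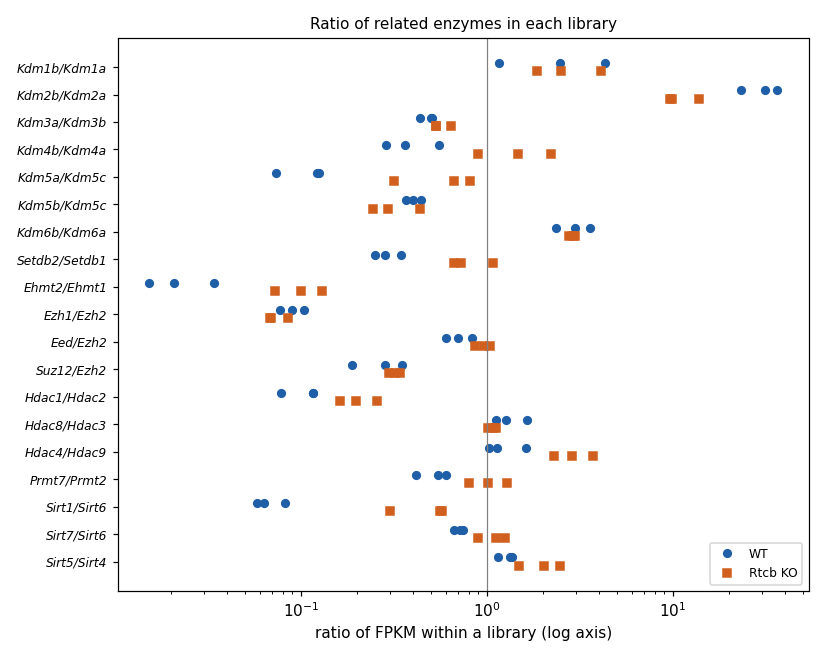
Ratio of the FPKM of 19 pairs of related enzymes within each library (log axis); circles are the 3 WT and squares the 3 KO libraries. The ratio of Sirt1 to Sirt6 and that of Setdb2 to Setdb1 lie higher in every KO library than in any WT library, while that of Kdm6b to Kdm6a overlaps. Ehmt2 and Kdm5a passed the filter only through KO, so the separation of their ratios supports nothing.

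Exons of 10 of the 59 genes overlap those of another protein-coding gene in GENCODE vM21, 8 on the opposite and 2 on the same strand, and reads cannot be assigned by strand in Smart-seq2. Of the 18 enzymes called alike under the 3 scalings these are Kdm2b, Kdm5a, Setdb1 and Sirt2. Rnf34, which overlaps Kdm2b, went from 439.8 to 258 FPKM; Ccdc77, which overlaps Kdm5a, from 6.84 to 10.8 FPKM; and Nfkbib, which overlaps Sirt2, from 75.1 to 50.8 FPKM. Cers2, listed as Lass2, which overlaps Setdb1, was at 68.9 FPKM in WT and 57.5 FPKM in KO and was not called (limma adjusted p = 0.121). The first 3 neighbours were called in the same direction as the enzymes, whereas Psmd13, which overlaps Sirt3, rose from 7.72 to 17.5 FPKM while Sirt3 fell. Their share in the enzymes' values was not tested.

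Methyltransferases outside the symbol rule were lower in 13 of 19 tested genes as deposited and higher in 3; without the factors 5 were lower and 4 higher. These are 68.4% lower and 15.8% higher as deposited, and 26.3% and 21.1% without the factors, against 54.0%, 9.29%, 18.0% and 25.7% of all genes. Their median log2 fold change was −0.77, against −0.47 for all genes. The members of smallest p were Mll3 (Kmt2c), an H3K4 methyltransferase, from 28.9 to 6.88 FPKM (−1.92 on the log2 scale, adjusted p = 0.000162), and Smyd3, from 32.8 to 11.8 FPKM (−1.41, adjusted p = 0.000162). Those that rose were Ash1l (4.01 to 9.45 FPKM), an H3K36 methyltransferase, and the H4K20 methyltransferases Suv420h2 (1.66 to 5.39 FPKM) and Suv420h1 (5.704 to 8.16 FPKM, adjusted p = 0.0493). Among 7 tested demethylases outside the rule, 1 rose and 4 fell (57.1% lower, near the 54.0% of all genes; 2 were higher without the factors), the 2 of smallest p being Phf8 (27.2 to 17.2 FPKM) and Jhdm1d, now Kdm7a (20.3 to 12.2 FPKM). Jmjd1c, a relative of Kdm3a, rose (1.94 to 3.38 FPKM).

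Subunits of the H3K4 methyltransferase complexes (COMPASS) fell in 8 of 13 genes and rose in 0 as deposited by limma (0 at an unadjusted p under 0.05); without the factors 3 were lower and 1 higher. The 61.5% and 23.1% lower were near the 54.0% and 18.0% of all genes. Ash2l fell from 68.5 to 28.6 FPKM (−1.23, adjusted p = 0.000162) and Wdr82, a partner of SETD1A, from 59.1 to 28.01 FPKM (−1.04). Of 11 partners of PRC2 and G9a, 2 rose and 7 fell (4 and 2 without the factors), so that 63.6% and 18.2% were lower, against 54.0% and 18.0% of all genes. Rbbp7, a histone chaperone shared by PRC2 and the deacetylase complexes, fell from 1838 to 954 FPKM, Atf7ip, the partner of SETDB1, from 51.3 to 27.9 FPKM, while Zfp644, a partner of G9a, rose from 3.92 to 8.06 FPKM and Mtf2, a PRC2 accessory subunit, from 35.8 to 49.5 FPKM.

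Corepressor subunits that carry HDAC and KDM1A enzymes rose in 5 and fell in 17 of 31 tested genes, and in 8 and 1 without the factors. The 54.8% lower as deposited and the 25.8% higher without the factors were at the level of all genes (54.0% and 25.7%). Sin3a, the scaffold of the SIN3 complex, fell from 153 to 81.99 FPKM and Gps2, of the NCoR complex, from 77.6 to 47.5 FPKM; neither was called without the factors. The 5 that rose were Mier1 (0.893 to 3.94 FPKM), the CoREST gene Rcor3 (7.69 to 19.6 FPKM), Mta2 (0.932 to 2.796 FPKM), Arid4b (8.05 to 11.9 FPKM) and Brms1l (14.997 to 21.7 FPKM), each also called higher without the factors; Mier1 and Mta2, with WT means under 1 FPKM, passed the filter only through KO. Of 15 tested histone acetyltransferases, 1 rose and 11 fell as deposited, and 1 and 4 without the factors: 73.3% and 26.7% were lower, against 54.0% and 18.0% of all genes. Elp3 (84.5 to 32.5 FPKM) and Ncoa3 (80.9 to 28.3 FPKM, −1.50) fell, and Hat1, which acetylates new histone H4, rose from 131 to 204 FPKM (adjusted p = 0.009). Among 8 readers of H3K9 methylation, 1 rose and 3 fell (4 and 1 without the factors), which is 37.5% lower as deposited, against 54.0%, while the share higher without the factors was above the 25.7% of all genes. Cbx3 (HP1 gamma) rose from 23.05 to 72.3 FPKM (1.57, adjusted p = 0.000419), and Uhrf1, which brings DNMT1 to DNA, fell from 455 to 161 FPKM (−1.48, adjusted p = 0.000162). Of 15 tested suppliers of SAM and NAD, 1 rose and 7 fell (2 and 3 without the factors), and the 46.7% lower as deposited was below the 54.0% of all genes. Mat2a, the catalytic subunit that makes SAM, rose from 64.7 to 103 FPKM (adjusted p = 0.00614), while Mat2b, its regulatory partner, fell from 1646 to 957 FPKM as deposited but was not called without the factors, and Ahcy, which clears the product of methylation, fell from 27.6 to 13.7 FPKM.

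**Figure D5:**
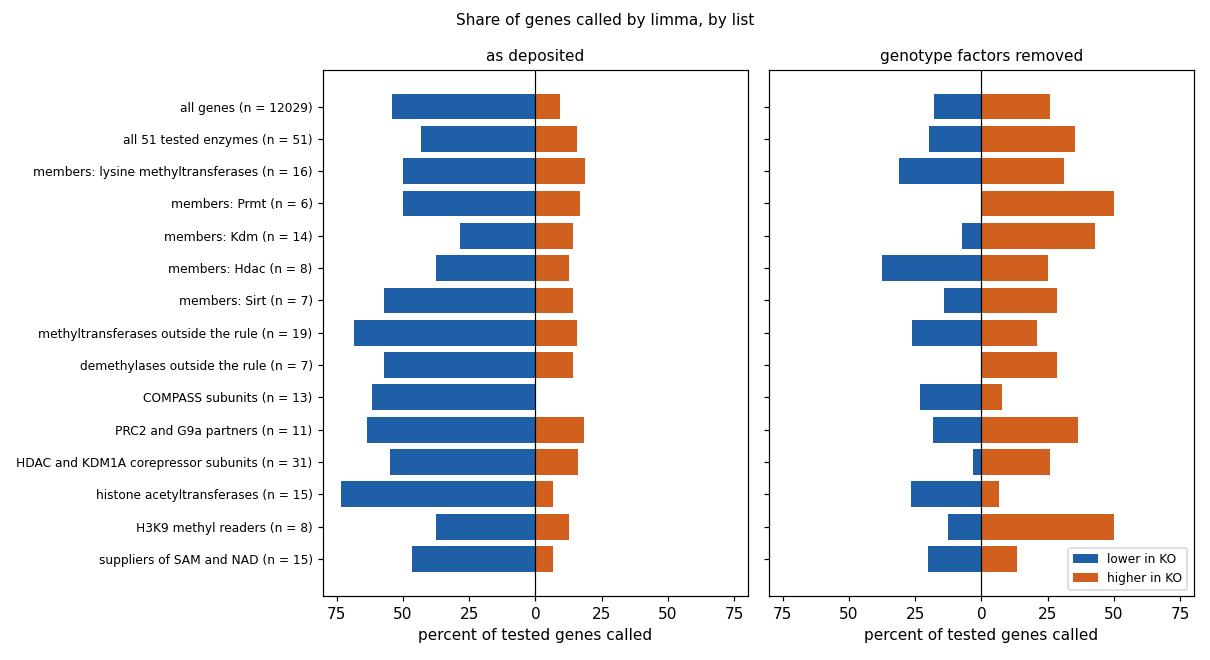
Percent of tested genes called lower (left of 0) and higher (right of 0) in KO by limma, as deposited and with the genotype factors removed, for all genes, the enzyme families and 8 lists of associated genes (n is the number tested). As deposited most bars lean to the left, as all genes do (54.0% lower, 9.29% higher). Without the factors all 51 enzymes together lean to the right (35.3% higher, 19.6% lower), as all genes do (25.7% higher, 18.0% lower).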

How the data were processed

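Per the labels, RNA of 10 oocytes per library was amplified by Smart-seq2. Per the submitters' processing notes, the genome build was mm9 and the tools included Cufflinks 2.2.1 and TopHat2 2.1.1. The deposited table gives FPKM per gene for 6 libraries, normalized by the authors to ERCC spike-ins; read counts and strand handling were not stated. Depth and its precision are unknown. The 12029 genes that averaged 1 FPKM or more were fitted as log2(FPKM + 1) by genotype with limma 3.58.1 (R 4.3.3, trend), with Benjamini-Hochberg adjustment over all of them. Alternatives were pseudocounts of 0.1 and 5, no filter, a minimum of 10 FPKM, 3 other scalings, no trend, a replicate block and each library left out. Genotype factors were read from the digits: divided by 2 (WT) or 1.33 (KO), 100% of values of at least 1 FPKM had 6 significant digits, against at most 76.8% for any other of 442 candidate fractions (tolerance 0.01). On simulated data for KO against WT (12029 genes), 28.4%, 71.6% and 98.5% of genes changed by 0.6, 1 and 2 on the log2 scale were called, with 5 false calls among 11829 unchanged genes. Only 67, 67 and 66 genes were changed, all with a mean log2(FPKM + 1) above 2, about equally up and down. In the real data 54.0% of tested genes were called lower, and some enzymes lay at lower levels. These rates therefore do not carry over to the calls made here.

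The enzymes, lists and pairs were chosen with earlier results of these data known. Per-library values are given, in each class, for the up to 4 tested enzymes of smallest p and the one of highest WT mean, for all called higher, and for all called alike under the 3 main scalings (as deposited, equal totals, factors removed); other enzymes with values, and Kdm4c and Hdac10, were chosen after their values were seen. Of each associated list the 2 genes of smallest p are named, plus those called higher where 5 or fewer. Promoter sequences are from RefSeq (GRCm38.p6).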

Additional observations from a re-analysis of the deposited data

How the results depend on the processing

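The 8 enzymes called higher became 2 with a minimum of 10 FPKM, 13 with equal totals, 17 with median ratio scaling and 18 with the genotype factors removed; leaving out 1 library gave 5 to 9. The 22 called lower became 13 with median ratio scaling and 10 with the factors removed; leaving out 1 library gave 19 to 23. Over all genes, 1118 higher became 490 with a minimum of 10 FPKM, 2283 with equal totals, 2746 with median ratio scaling and 3097 with the factors removed, and 6501 lower became 3107, 2606 and 2161 under these 3 scalings; leaving out 1 library gave 769 to 1360 higher and 5587 to 6234 lower. With a minimum of 10 FPKM fewer genes are tested. On log2(FPKM + 1) a scaling moves genes unequally: removing the factors moved Setd4 from 0.034 to 0.62 and Hdac11 from 1.76 to 1.70. Eed turned to 0.039 with equal totals, 0.12 with median ratio scaling and 0.19 with the factors removed, and Ehmt1 to 0.060, 0.14 and 0.20. With a pseudocount of 0.1 all 51 tested enzymes kept their direction and side of the threshold, as did 50 with a pseudocount of 5 and 50 with no filter. The call of Prmt1 was lost with a pseudocount of 5, with no filter and without the trend. With a replicate block, 8 enzymes were higher and 24 lower, including all 8 and all 22 called without it; the 2 added were Kdm1a (adjusted p = 0.0229) and Suz12 (0.0212), and Kdm1a was also called with a minimum of 10 FPKM (0.0469). The labels do not say that replicate numbers pair the libraries, and the deviations of same-numbered libraries correlated at 0.14, −0.099 and 0.038. Unknown depth limits the lowest genes, such as Hdac11, Kdm5a and Ehmt2, whose WT means were under 1 FPKM.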
